A study of Mus musculus with 8 samples.

Results

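Pre-BII cells of Aiolos-/-/OBF-1-/- mice (double mutant) were compared with pre-BII cells of wild type mice on Affymetrix MOE430A arrays, and the genes whose mRNA was higher or lower in the double mutant were described by functional class. The study sorted B220+ CD25+ pre-BII cells from pooled bone marrow and hybridized 2 independent pools per genotype, 1 on each array, so that 2 double-mutant and 2 wild type arrays of the 8 in the series enter the comparison. Both groups are labelled strain Bl6, bone marrow and 7 weeks of age. The labels do not mention the sort or the pools, and describe the mutant material as coming from a single animal. The double mutant lacks both genes from the germline, so every cell of the animal carries the deletions, and large and small pre-BII cells were sorted together. Members were all probe sets, leaving out the array's AFFX controls, with a mean intensity of at least 100 in either genotype. These were 9621 of 22626 probe sets. Taking for each gene the probe set with the highest mean over all arrays, 6127 of 12369 genes were members, 5695 of them at 100 or more in both genotypes, 269 only in the double mutant and 163 only in wild type. Among probe sets matched to a gene, those closest to the limit were of Col4a1 and Brd3, just inside with a higher genotype mean of 100.017 each. Probe sets of Col6a2 and Arhgef3 lay just outside, at 99.996 and 99.991.

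A developing B cell that has assembled an immunoglobulin heavy chain pairs it with the surrogate light chain, made of λ5 and VpreB, to form the pre-B cell receptor. Signals from this receptor and from the interleukin-7 receptor drive a burst of division in large pre-BII cells. The cells then stop dividing, switch off the surrogate light chain and, as small pre-BII cells, rearrange their κ and λ light chain genes before they become immature B cells with a complete receptor. Aiolos, a zinc finger relative of Ikaros, binds at the surrogate light chain genes and acts there as a repressor. OBF-1 is a coactivator that joins the Oct factors on the octamer element, a sequence of immunoglobulin promoters and of other B cell genes.

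The genotypes were checked on the deleted genes and on the markers of the sorted population. Pou2af1, which encodes OBF-1, had intensities of 170.1 and 272.9 in double-mutant pre-BII cells, against 2761 and 2678 in wild type pre-BII cells (log2 fold change -3.66, SE 0.17, adjusted p = 1.5e-07 from limma). No probe set was matched to Ikzf3, which encodes Aiolos, so that deletion could not be checked here. Of 9 measured identity markers of pre-BII cells 2 were higher and 2 lower in the double mutant, while the probe set of Pax5 lay below 100 in both genotypes. The rises were Rag2 and Il2ra and the falls Cd79b and Ebf1. Rag2 and Ebf1 lost their calls without some arrays, and the fall of Ebf1 also depended on the probe set, as given below. Cd79a, a signalling chain of the receptor, read 7548 and 7216 in the double mutant and 7927 and 7944 in wild type (log2 -0.10, SE 0.093, adjusted p = 0.59 from limma). Rag1, a recombinase subunit, read 2568 and 2781 in the double mutant and 3181 and 2901 in wild type, which did not pass the test (log2 -0.19, adjusted p = 0.35 from limma). Il2ra, the CD25 antigen of the sort, was present on all 4 arrays, at 702.6 and 625.9 in the double mutant and 445.1 and 396.2 in wild type (log2 0.66, adjusted p = 0.002 from limma).

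Transcripts of other bone marrow cells were measured in both genotypes and were in part higher in the double mutant. Of 19 measured granulocyte and monocyte markers 10 were higher and 0 lower, with a summed intensity of 32090 to 32590 in the double mutant and 25930 to 25970 in wild type. Ngp, a neutrophil granule protein, read 6013 and 6045 in the double mutant and 4244 and 4461 in wild type, and Lyz2, lysozyme of myeloid cells, 1896 and 1995 against 1260 and 1376 (log2 0.47 and 0.56). The adjusted p of Ngp in limma was 0.012, but 0.0628, 0.0513 and 0.0847 without double-mutant replicate 1, double-mutant replicate 2 and wild type replicate 1. Of 14 erythroid markers 6 were higher and 0 lower, with sums of 3070 to 3406 in the double mutant and 2315 to 2431 in wild type, led by Car1 and Car2, carbonic anhydrases of red cells (log2 1.34 and 1.18). Of 8 plasma cell markers 3 were higher, with sums of 4747 to 5049 against 3167 to 3360. They were Sdc1 (CD138), with a log2 fold change of 0.98, Slamf7 and Irf4. Irf4 makes up a large part of these sums and counts again below among the B-lineage transcription factors, where its intensities are given. Of 15 T cell markers 1 was higher, the adaptor Lat at 0.64, and of 13 markers of NK cells, dendritic cells and basophils 0 passed the test in limma, with sums of 695.6 to 762.6 in the double mutant and 634.1 to 685.1 in wild type. Leaving out 1 array lowered the granulocyte and monocyte count to 4 without double-mutant replicate 1, double-mutant replicate 2 or wild type replicate 1 and to 3 without wild type replicate 2, and the erythroid count to 2 without double-mutant replicate 1 or wild type replicate 1. The part of these cells in the results below was not tested. In such bulk samples fewer cells of a type and less RNA per cell cannot be told apart.

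**Figure D1:**
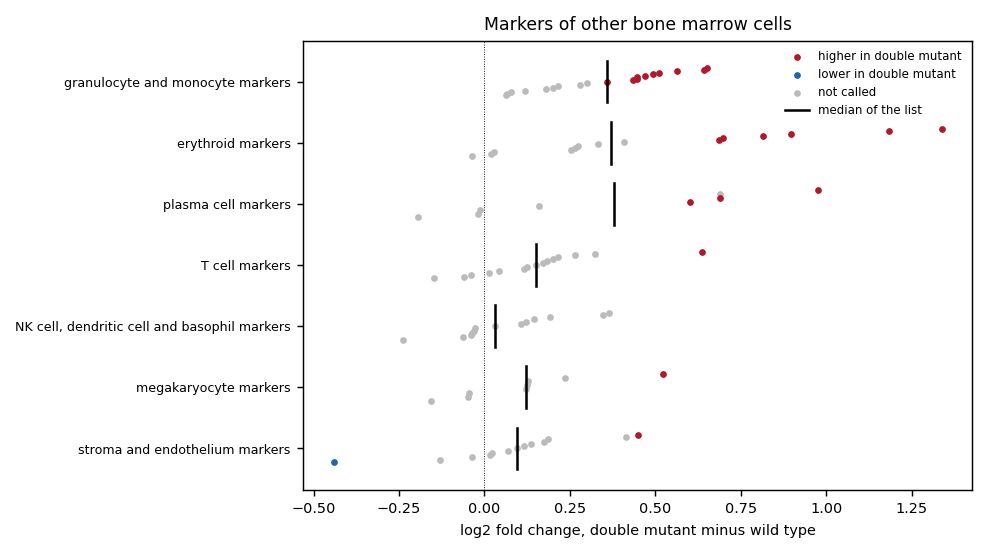
Log2 fold change, double mutant minus wild type (horizontal axis), of every measured marker gene of 7 other cell types of bone marrow, with each point a gene, coloured by its limma call, and each bar the median of its list. The granulocyte and monocyte points all lie right of 0 and 10 of 19 are called, while those of NK cells, dendritic cells and basophils lie on both sides of it.

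The 4 arrays were close to each other in overall signal. Median intensities were 67.84 to 69.38 on the double-mutant arrays and 66.77 to 67.53 on the wild type arrays, and log2 values correlated at 0.9961 within the double mutant, 0.9965 within wild type and 0.9878 to 0.9893 between the genotypes. For Gapdh the 3' control probe set read over the 5' one by a ratio of 1.494 to 1.554 in the double mutant and 1.609 to 1.824 in wild type, without overlap, while the same ratio for actin was 1.807 to 1.936 and 1.714 to 2.136. Fluidics station 1 served the double-mutant arrays and station 2 the wild type arrays, so that station and genotype cannot be told apart in any result here.

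Among the 6127 member genes 476 were higher (7.77%) and 444 lower (7.25%) in the double mutant by limma, with p-values adjusted over all probe sets and a threshold of 0.05. Over all 12369 genes the counts were 605 (4.89%) and 511 (4.13%). By probe set, 690 of the 9621 members were higher (7.17%) and 788 lower (8.19%), together 15.4%, beside 970 (4.29%) and 968 (4.28%) of all 22626, together 8.57%. Rises and falls were of like size, with a median log2 fold change of 0.55 among the called rises and -0.52 among the called falls, and 72 rises and 71 falls reached 2-fold. Only 10 genes rose and 9 fell by 4-fold or more. Of the genes called higher, 372 were at 100 or more in both genotypes and 104 in the double mutant alone, and of those called lower 383 were in both and 61 in wild type alone. Genes that became members through a single genotype had to differ, so their number is a description only. In either direction 920 member genes (15.0%) and 1116 of all genes (9.02%) were called. The genotypes did not overlap in any of the 920, nor in 3764 of the 6127 member genes whether called or not (61.4%). The counts moved with single arrays, to 294 higher and 203 lower without double-mutant replicate 1, 289 and 227 without wild type replicate 1, and 234 and 234 without wild type replicate 2.

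**Figure D2:**
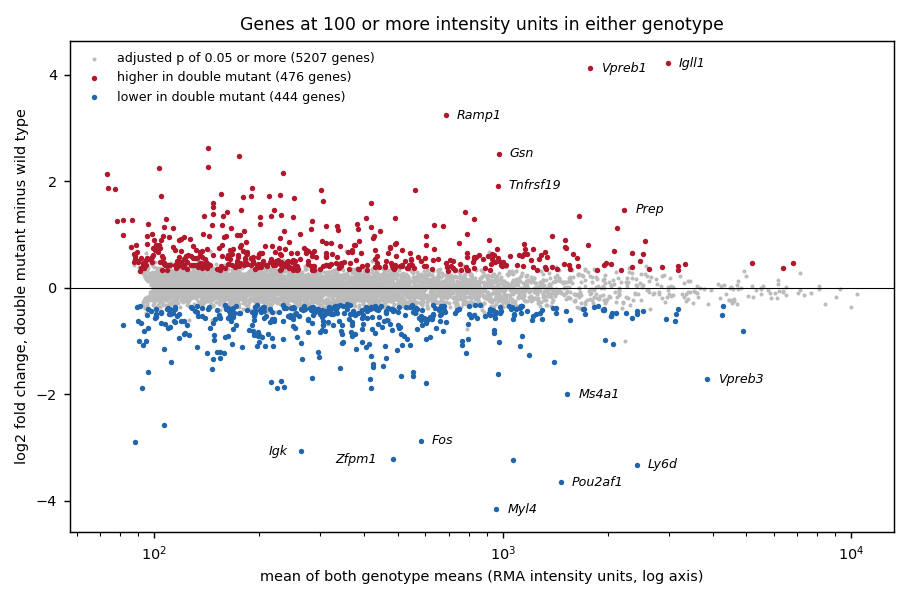
Log2 fold change, double mutant minus wild type (vertical axis), against the mean of both genotype means (horizontal log axis, RMA intensity units) for the 6127 member genes, with the 476 higher genes in red and the 444 lower genes in blue. The called genes spread over the whole range of intensity, and Igll1 and Vpreb1 at the top and Myl4 at the bottom stand farthest from 0.

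The surrogate light chain genes rose most. Igll1, which encodes λ5, had intensities of 5904 and 5408 in double-mutant pre-BII cells, against 327.4 and 280.6 in wild type pre-BII cells (log2 4.22, SE 0.11, adjusted p = 6.7e-10 from limma). Vpreb1, its partner, had 3242 and 3478 in the double mutant and 194.9 and 190.6 in wild type (log2 4.12, SE 0.097). A probe set shared by Vpreb2 and Vpreb1 had 1667 and 1773 against 115.5 and 125.0 (log2 3.84, SE 0.098), and the copies cannot be separated on it. The double-mutant arrays were many times above the wild type arrays on all 3 probe sets. Vpreb3, which has a similar name but is not part of the surrogate light chain, went the other way, with 1759 and 1836 in the double mutant and 5997 and 5822 in wild type (log2 -1.72, SE 0.09, adjusted p = 3.5e-07 from limma).

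Markers of the pro-B and pre-BI stages, which precede the pre-BII stage, were taken as a list that includes Igll1 and Vpreb1. Of 16 measured 7 were higher, Igll1 and Vpreb1 among them, and 1 was lower. The list median was 0.23. Over all genes 4.89% were higher and 4.13% lower, with a median of 0.01. Il7r, the interleukin-7 receptor chain that carries the growth signal of early B cells, read 3071 and 3542 in the double mutant and 1773 and 1824 in wild type (log2 0.88, SE 0.10, adjusted p = 0.00021 from limma). Lef1, a transcription factor of the Wnt pathway that is used in early B cells, read 166.4 and 175.3 against 39.63 and 32.17 (log2 2.26, SE 0.12). Spn (CD43), a surface sialoglycoprotein lost during B cell maturation, read 157.8 and 133.3 in the double mutant and 74.59 and 75.08 in wild type (log2 0.96). Bst1, a surface ectoenzyme, and Dntt, the terminal transferase that adds bases to heavy chain joints, had log2 fold changes of 0.81 and 0.59. Cd93 was the gene that fell, at -0.61, and is named here after its value was seen. The summed intensity of the list was 27340 to 27480 in the double mutant and 16140 to 17000 in wild type. Igll1 and Vpreb1 entered these sums with means of 5656 and 3360 in the double mutant and 304.0 and 192.8 in wild type.

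Signalling molecules of the B cell and pre-B cell receptor were more often higher than lower, with 7 of 27 measured genes higher and 1 lower (median 0.08). Those that rose included inhibitory members. Fcgr2b, the inhibitory IgG receptor, read 1498 and 1433 in the double mutant and 792.1 and 867.3 in wild type (log2 0.82, SE 0.091, adjusted p = 0.00014 from limma). Inpp5d, which encodes the lipid phosphatase SHIP, read 1566 and 1444 against 1070 and 998.1 (log2 0.54), and Fyn, a Src family kinase, 414.9 and 371.3 against 261.8 and 243.6 (log2 0.64). Dok3, an inhibitory adaptor, was the single fall, at 1220 and 1165 in the double mutant and 1681 and 1618 in wild type (log2 -0.47, adjusted p = 0.0093 from limma). Its adjusted p was 0.0681 without wild type replicate 1 and 0.052 without double-mutant replicate 2, and the rises numbered 4 without double-mutant replicate 1, wild type replicate 1 or wild type replicate 2.

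**Figure D3:**
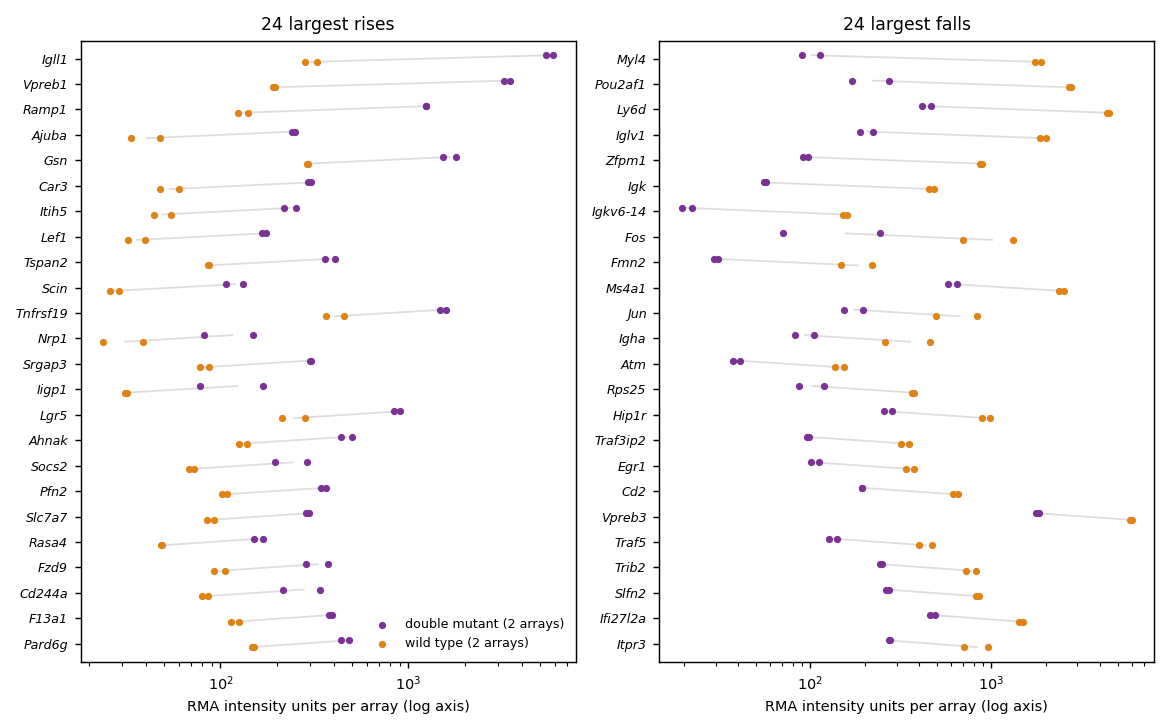
RMA intensity on each of the 2 double-mutant (purple) and 2 wild type (orange) arrays, on log axes, of the 24 member genes with the largest rises (left panel) and the 24 with the largest falls (right panel), with a line joining the genotype means. The purple and orange points do not overlap in any gene shown, and Fos, Nrp1 and Iigp1 show wide gaps between arrays of 1 genotype.

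Several of the largest rises were cell surface receptors. Ramp1, an accessory chain of calcitonin family receptors, read 1243 on each double-mutant array, against 124.3 and 139.9 on the wild type arrays (log2 3.24, SE 0.14, adjusted p = 7.9e-08 from limma). Tnfrsf19, a member of the TNF receptor superfamily, read 1587 and 1474 in the double mutant and 452 and 362.4 in wild type (log2 1.92, SE 0.13). Lgr5, a receptor for R-spondins that strengthens Wnt signals, read 905.6 and 841.3 against 281.6 and 212.4 (log2 1.84, SE 0.13). The groups were far apart in all 3. Fzd9, a Wnt receptor, read 371.3 and 286 against 92.55 and 106.2 (log2 1.72), and with Lef1 and Lgr5 it was among 4 higher and 0 lower of 22 Wnt receptors and targets, a count that was 3 without any 1 of the 4 arrays. Nrp1, a receptor for semaphorins and for VEGF, read 82.07 and 149.5 in the double mutant and 23.73 and 38.48 in wild type (log2 1.87, SE 0.25, adjusted p = 0.00059 from limma). Cd244a, a receptor of the SLAM family, read 216.2 and 337.5 against 79.31 and 86.1 (log2 1.71).

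Tetraspanins, membrane proteins that organise receptors and integrins into microdomains, were higher in 8 of 23 measured genes and lower in 0, with a median of 0.19, and the other 15 did not pass the test. Tspan2 read 405 and 360.6 in the double mutant and 85.69 and 86.86 in wild type (log2 2.15, SE 0.13, adjusted p = 1.4e-06 from limma), and Tspan31 202.5 and 239.4 against 69.71 and 77.41 (log2 1.58, SE 0.13). Cd9, Tspan32 and Tspan14 rose less, by log2 0.59, 0.81 and 0.51. The integrin chain Itgav, which pairs with several β chains to bind vitronectin and fibronectin, read 583.6 and 621.1 in the double mutant and 290.5 and 281.6 in wild type (log2 1.07, SE 0.089), and 2 of 21 integrins were higher and 0 lower, or 1 without double-mutant replicate 1 or wild type replicate 2.

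Extracellular matrix genes and proteases changed in both directions, 7 of 117 higher and 2 lower (5.98% and 1.71%, beside 4.89% and 4.13% of all genes), and the list median lay at 0.02, but at -0.01 after each array was centred on its median. Itih5, a hyaluronan-binding matrix protein, read 218.3 and 252.3 in the double mutant and 54.45 and 44.19 in wild type (log2 2.26). Mmp11, the matrix metalloproteinase stromelysin-3, read 357.8 and 307.8 against 135.5 and 121 (log2 1.37), and Lamc1, a laminin chain, had a log2 fold change of 0.58. Col5a3, a collagen chain, went the other way, with 770.4 and 756.3 in the double mutant and 1136 and 1134 in wild type (log2 -0.57, adjusted p = 0.0019 from limma). The list counted 3 rises and 1 fall without wild type replicate 1, and 4 and 1 without double-mutant replicate 1 or wild type replicate 2.

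Genes of the cytoskeleton were among both the largest rises and the largest falls. Gsn (gelsolin), which severs and caps actin filaments, read 1792 and 1532 in the double mutant and 287.1 and 290.4 in wild type (log2 2.52, SE 0.11, adjusted p = 7.2e-08 from limma). Scin (scinderin), a related severing protein, read 131.5 and 107.4 against 25.8 and 28.68 (log2 2.13), and Pfn2, a profilin that binds actin monomers, 341 and 366.3 against 108.5 and 101.8 (log2 1.75). Capg, a capping protein of the gelsolin family, fell instead, with 152.2 and 184.1 in the double mutant and 257.6 and 263.2 in wild type (log2 -0.64). In the class of severing, capping and monomer-binding proteins 3 of 25 were higher and 3 lower, or 1 lower without double-mutant replicate 1 or wild type replicate 1. Ajuba, a LIM protein of cell junctions, read 240.3 and 250.4 against 33.6 and 47.7 (log2 2.62, SE 0.28), and the polarity protein Pard6g 485.7 and 437.6 against 150.7 and 146.8 (log2 1.63). Srgap3, a GTPase-activating protein, had 297.6 and 302.1 in the double mutant and 77.76 and 86.69 in wild type (log2 1.87).

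Myl4, an essential light chain of myosin known from the atrium and from embryonic muscle, had the largest fall among genes with a probe set of their own. It read 113.5 and 90.37 in the double mutant and 1745 and 1886 in wild type (log2 -4.16, SE 0.11, adjusted p = 1.2e-09 from limma). Fmn2, a formin that nucleates actin, read 29.25 and 30.89 against 218.5 and 148.3 (log2 -2.58, SE 0.24), and Hip1r, which links clathrin-coated pits to actin, 283.4 and 254.7 against 985 and 886.2 (log2 -1.80). The calponins Cnn2 and Cnn3, actin-binding proteins, fell by 1.0 and 0.57 on the log2 scale, and Cnn2 read 507.3 and 512.5 in the double mutant and 1046 and 990.7 in wild type. Of 43 muscle and contractile proteins 1 was higher and 5 lower, or 3 lower without double-mutant replicate 1 or wild type replicate 1.

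Enzymes and carriers were also found among the rises. Car3, a carbonic anhydrase, read 302.1 and 291.6 in the double mutant and 47.6 and 59.98 in wild type (log2 2.47). With Car1 and Car2, counted above as erythroid markers, it made up the 3 rises among 16 carbonic anhydrases, whose median was -0.001. Of 245 solute carriers 14 were higher and 5 lower (5.71% and 2.04%), beside 4.89% and 4.13% of all genes, so that the share of rises was near that of all genes. Slc7a7, an amino acid transporter, read 295.2 and 286.6 against 84.54 and 92.25 (log2 1.72), and Slc29a1, a nucleoside transporter, 263 and 256 against 97.52 and 92.07 (log2 1.45). Slc37a4, the glucose-6-phosphate carrier, Slc11a2, an iron transporter, and Slc16a1, a lactate transporter, had log2 fold changes of 0.86, 0.78 and 0.58. Without wild type replicate 2 the carriers counted 8 higher and 3 lower, and without wild type replicate 1 they counted 10 and 3.

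Of 19 genes of phosphoinositide 3-kinase, AKT and mTOR signalling 3 were higher and 2 lower (median 0.0), with 0 lower without double-mutant replicate 1, wild type replicate 1 or wild type replicate 2. Irs1, the insulin receptor substrate, read 966.6 and 1307 in the double mutant and 442.7 and 398.9 in wild type (log2 1.42, SE 0.13, adjusted p = 2.9e-05 from limma), and Gab1, a docking protein, 190.1 and 189.6 against 89.86 and 104.9 (log2 0.97). Spred2, an inhibitor of the Ras pathway named here after its value was seen, read 227.7 and 210.6 against 76.57 and 76.93 (log2 1.51), and Rasa4, a GTPase-activating protein for Ras, 169.2 and 151.6 against 48.35 and 48.91 (log2 1.72). Rasgrp1, an exchange factor that activates Ras, fell, at 48.54 and 46.91 in the double mutant and 166.2 and 122.7 in wild type (log2 -1.58). So did Rgs10, a regulator of G protein signals (log2 -1.04). The class of GTPase regulators held 7 higher and 8 lower of 83, with 4 and 5 without wild type replicate 1 and 4 and 8 without wild type replicate 2.

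Cytokine receptors and their inhibitors changed in both directions. Socs2, a feedback inhibitor of cytokine signals, read 194.1 and 289.5 in the double mutant and 68.18 and 71.99 in wild type (log2 1.76), while Socs1, an inhibitor of the same family, read 57.29 and 66.18 against 159.1 and 163.9 (log2 -1.39, SE 0.11, adjusted p = 1.3e-05 from limma). Pias3, an inhibitor of STAT3, rose by log2 0.76. Il4ra, the interleukin-4 receptor chain, read 76.77 and 90.43 in the double mutant and 209.9 and 154 in wild type (log2 -1.11), and Il21r, the interleukin-21 receptor, 61.99 and 64.21 against 138.6 and 115.2 (log2 -1.0), whereas Il7r and Il2ra rose. Of 52 cytokine receptors 3 were higher and 2 lower (5.77% and 3.85%), shares close to those of all genes.

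Smaller classes with more rises than falls were autophagy (4 higher and 1 lower of 25), chromatin regulators (5 and 1 of 50, median 0.02, but -0.01 after median centring) and lysosome and vacuolar ATPase genes (6 and 2 of 52, median -0.004). Beside these counts, 4.89% of all genes were higher and 4.13% lower. Most genes of these lists were members (22, 40 and 38), and of all member genes 7.77% were higher and 7.25% lower. Ulk2, a kinase that starts autophagy, read 237.3 and 254.3 in the double mutant and 158.4 and 155.6 in wild type (log2 0.65), and Ctsb (cathepsin B), a lysosomal protease, 1893 and 1902 against 1130 and 1113 (log2 0.76, adjusted p = 0.00016 from limma). Hdac7, a class II histone deacetylase, read 1442 and 1299 against 980.1 and 837.6 (log2 0.60), with an adjusted p of 0.0041 that was 0.0514 without wild type replicate 2. Without that array the chromatin regulators counted 1 rise in place of 5, and 3 without any other of the 4 arrays. The autophagy rises numbered 2 without any 1 of the 4 arrays, and the lysosome rises 2, 3 and 3 without double-mutant replicate 1, double-mutant replicate 2 and wild type replicate 2. The autophagy rises also depended on the probe set. Other probe sets of Map1lc3b (log2 -0.06, -0.26 and -0.30) and Wipi2 (-0.34) lay lower and did not pass the test. Those of Ulk2 passed it as rises (0.36 and 0.42). F13a1, the A chain of coagulation factor XIII, known from monocytes and platelets, read 389.6 and 377.7 in the double mutant and 124.8 and 114.4 in wild type (log2 1.68), and Iigp1, an interferon-induced GTPase, 77.77 and 168.5 against 31.22 and 31.75 (log2 1.86, SE 0.28). Ahnak, a very large scaffold protein, read 439.3 and 498.5 against 125.3 and 137.9 (log2 1.83).

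Abundant genes outside every list also rose, and those given here were picked after their values were seen. Prep, prolyl endopeptidase, read 3505 and 3060 in the double mutant and 1214 and 1154 in wild type (log2 1.47). Atp1b3, a β subunit of the sodium pump, read 3061 and 2770 against 1350 and 1319 (log2 1.13), and Tmem229b, a membrane protein, 2498 and 2253 against 1023 and 851.3 (log2 1.35). Lmo2, a LIM-domain partner of blood transcription factors, read 544.1 and 711.8 in the double mutant and 205.1 and 209.8 in wild type (log2 1.58, SE 0.16, adjusted p = 8.6e-05 from limma). Over all member genes 320 of the 476 rises and 284 of the 444 falls belonged to none of the 71 lists.

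Falls among the surface and regulatory genes of the B lineage were led by Ly6d, a GPI-anchored protein that marks B cell commitment in lymphoid progenitors. Ly6d read 463.9 and 416.8 in the double mutant and 4359 and 4476 in wild type (log2 -3.33, SE 0.10, adjusted p = 1.4e-09 from limma). Zfpm1 (FOG-1), a partner of GATA factors, read 96.99 and 90.68 against 892 and 863.5 (log2 -3.23, SE 0.17). Cd2, an adhesion molecule that appears on pre-B cells with the μ heavy chain, read 192.3 and 193.5 against 658.4 and 615.5 (log2 -1.72). These genes lay near or below 500 units on the double-mutant arrays and above 600 on the wild type arrays. Cd79b, the second signalling chain of the receptor, read 3679 and 3426 in the double mutant and 6215 and 6211 in wild type (log2 -0.81, SE 0.091). Ebf1, a factor of B lineage specification, had a log2 fold change of -0.51 (adjusted p = 0.018 from limma). It lost the call without double-mutant replicate 1 or wild type replicate 1. Further Ebf1 probe sets did not pass the test, at log2 -0.18 (adjusted p = 0.36 from limma) and 0.08 (0.73).

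The octamer element was looked up in the promoters because OBF-1 acts through it, and stretches of the 6 genes that hold it among those at least 2-fold lower are printed to show it in its surroundings. Promoters are RefSeq windows of 250 bases before to 50 bases after the gene start on build GRCm38.p6, and 70 bases of each are given, 5' to 3' along the gene, with the letters ATTTGCAT, or ATGCAAAT where it reads on the other strand, in capitals. Vpreb3 lies at chr10:75948224-75948293, Itpr3, a calcium channel of the endoplasmic reticulum, at chr17:27057234-27057303, and Gadd45g, a stress-induced growth arrest gene, at chr13:51846541-51846610. Il4ra lies at chr7:125552101-125552170, Cnr2, the cannabinoid receptor of immune cells, at chr4:135895110-135895179, and Zfp428, a zinc finger gene with 2 octamers, at chr7:24506958-24507027, all on the plus strand.
Vpreb3: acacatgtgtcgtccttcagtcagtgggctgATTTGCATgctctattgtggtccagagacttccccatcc
Itpr3: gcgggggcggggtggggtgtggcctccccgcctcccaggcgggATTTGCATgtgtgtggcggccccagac
Gadd45g: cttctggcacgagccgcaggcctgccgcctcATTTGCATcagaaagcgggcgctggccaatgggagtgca
Il4ra: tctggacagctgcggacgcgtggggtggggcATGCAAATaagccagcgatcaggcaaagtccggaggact
Cnr2: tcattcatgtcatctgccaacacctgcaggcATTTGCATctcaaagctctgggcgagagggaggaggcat
Zfp428: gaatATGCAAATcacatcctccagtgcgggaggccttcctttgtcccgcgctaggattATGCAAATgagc

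The octamer starts 45 bases before the gene start in Vpreb3, 27 in Itpr3 and 48 in Cnr2, and farther away, at 103 and 139 bases, in Gadd45g and Il4ra. On either strand it was held by 16 of 371 promoters of member genes called lower (4.313%) and 4 of 376 of those called higher (1.064%), beside 76 of 5063 member genes (1.501%) and 1.735% of all 32851 promoters in the table. Among genes at least 2-fold lower 6 of 58 promoters held it, and among genes at least 2-fold higher 0 of 57. Itpr3 read 276 and 270.5 in the double mutant and 957.2 and 709.8 in wild type (log2 -1.59). Gadd45g and Cnr2, picked after their values were seen, had log2 fold changes of -1.33 and -1.08, and Zfp428 one of -1.01. The core TGGGAA, bound by Ikaros family proteins, was held by 32.45% of the 376 promoters of higher genes and 28.03% of the 371 of lower genes, beside 25.87% of those of member genes and 25.56% of all promoters. A match is a stretch of letters and not a binding site.

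Of 15 measured immunoglobulin light chain genes 7 were lower and 1 higher, with a median of -0.41. Iglv1, a λ variable gene whose probe set can bind several transcripts, read 188.2 and 222.6 in the double mutant and 2007 and 1861 in wild type (log2 -3.24, SE 0.21, adjusted p = 2e-06 from limma), and a probe set shared by Iglc1 and Iglv1 read 117.7 and 109.5 against 2937 and 2628 (log2 -4.61). A probe set of the κ locus, named Igk, read 55.51 and 56.5 against 485.6 and 455.6 (log2 -3.07, SE 0.10), but a further Igk probe set read 139.4 and 132.8 against 148.1 and 178.7 and did not pass the test (log2 -0.26, adjusted p = 0.25 from limma). Both probe sets whose annotation includes the constant region gene Igkc, shared with several variable genes, fell less, by 0.58 and 0.38 on the log2 scale, with 1100 and 1160 in the double mutant and 1628 and 1756 in wild type on the first. Igkv6-14, a κ variable gene, read 22.2 and 19.4 in the double mutant and 159 and 151.4 in wild type (log2 -2.90), and Igkv8-30, with the highest level of the variable genes named, 1351 and 1347 against 2786 and 2806 (log2 -1.05). Related variable genes may share these probes, so the values may not belong to the named gene alone. The μ heavy chain gene Ighm read 8265 and 9292 against 11280 and 11160 and did not pass the test (log2 -0.36, adjusted p = 0.062 from limma).

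Markers of immature and mature B cells were lower, 7 of 18 measured against 1 higher, with a median of -0.25 and a summed intensity of 9722 to 10110 in the double mutant and 12670 to 13780 in wild type. Ms4a1 (CD20), a membrane protein that appears as B cells mature, read 580.2 and 650.4 in the double mutant and 2521 and 2379 in wild type (log2 -2.0, SE 0.095, adjusted p = 1.6e-07 from limma). Tnfrsf13c, the receptor for the survival factor BAFF, read 697.5 and 735.2 against 1576 and 1488 (log2 -1.10), and Cd44, a hyaluronan receptor, 348.3 and 323.5 against 565.4 and 513.7 (log2 -0.68). Igha, the α heavy chain gene, on a probe set that can bind several transcripts, read 104.3 and 82.16 in the double mutant and 456 and 257.2 in wild type (log2 -1.89).

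Antigen presentation by MHC class II, which increases as B cells mature, was lower in 5 of 13 measured genes and higher in 0, with a median of -0.29. Cd74, the invariant chain, read 1229 and 1412 in the double mutant and 2646 and 2575 in wild type (log2 -0.99, SE 0.10, adjusted p = 7e-05 from limma). H2-Oa and H2-DMa, which edit the bound peptides, had log2 fold changes of -1.09 and -0.95. H2-Ab1, a class II β chain, read 249.8 and 368 against 497.3 and 601.6 (log2 -0.85), and Rfx5, which activates class II promoters, 381.7 and 440.7 against 550.8 and 561.7 (log2 -0.44). Both genes missed the threshold without double-mutant replicate 1 (adjusted p 0.0516 and 0.125) and without wild type replicate 2 (0.0749 and 0.0898), and Rfx5 also without wild type replicate 1 (0.0686), and the falls then numbered 3, 3 and 4. H2-M3, a class I molecule, was the single change among 12 class I presentation genes with a probe set of their own and rose, by log2 0.61. Probe sets shared by several class I Q genes are outside that list. The one of H2-Q6 and H2-Q8 read 4902 and 4994 in the double mutant and 3384 and 3316 in wild type (log2 0.56). Those of H2-Q9 with H2-Q7 and of H2-Q6 with H2-Q8 and H2-Q4 were also called higher (log2 0.535 and 0.72).

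**Figure D4:**
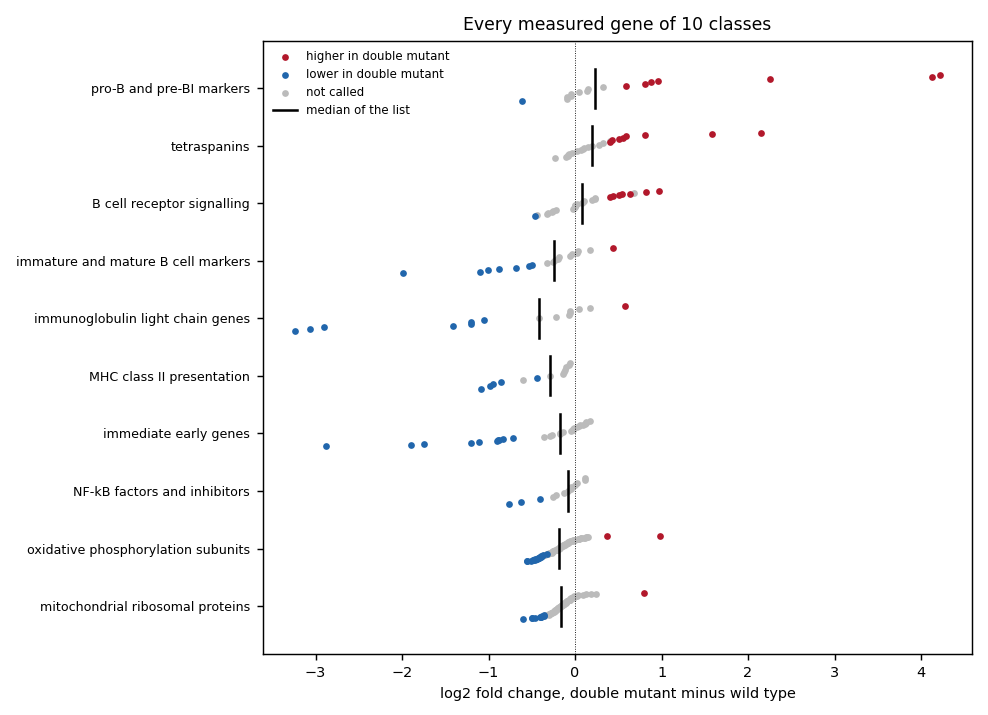
Log2 fold change, double mutant minus wild type (horizontal axis), of every measured gene of 10 classes, with called genes in red (higher) and blue (lower), other genes in grey and the median of each class as a bar. The medians of the pro-B and pre-BI markers and the tetraspanins lie right of 0, at 0.23 and 0.19, and that of the light chain genes farthest left, at -0.41.

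Immediate early genes, which cells switch on within minutes of a stimulus, changed only downward. Of 28 measured 10 were lower and 0 higher, with a median of -0.17, and the falls numbered 5 without wild type replicate 1. Fos read 243 and 70.8 in the double mutant and 1319 and 701.8 in wild type, with a wide spread between arrays of 1 genotype (log2 -2.88, SE 0.52, adjusted p = 0.0048 from limma, 0.0618 without wild type replicate 1). Jun, its partner in AP-1, read 196.1 and 152.7 against 831.4 and 496.4 (log2 -1.89, SE 0.30), and Egr1, a zinc finger factor induced by the receptor, 111.5 and 100.4 against 373.4 and 337.6 (log2 -1.75, SE 0.11). Gadd45b, Dusp2 and Ier5 had log2 fold changes of -1.11, -0.90 and -0.83. Dusp6, a phosphatase of the ERK kinases that their activity induces, read 237.7 and 236.9 in the double mutant and 758.7 and 575.2 in wild type (log2 -1.48).

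Of 13 NF-κB factors and inhibitors 3 were lower and 0 higher (median -0.09), and 10 did not pass the test. Bcl3, a nuclear IκB protein, read 108.3 and 106.4 in the double mutant and 181.7 and 182.4 in wild type (log2 -0.76), and Rel, the c-Rel subunit, 73.07 and 67.6 against 113.7 and 104.2 (log2 -0.63). The TNF superfamily with its receptors and adaptors had 3 rises and 3 falls among 39, with 1 rise without double-mutant replicate 1 or wild type replicate 1. Traf5, an adaptor of TNF receptors, read 127.5 and 140.9 against 471.3 and 396.6 (log2 -1.69), and Traf3ip2 (Act1), an adaptor of interleukin-17 and BAFF receptors, 96.3 and 98.39 against 350.4 and 317.9 (log2 -1.78). Trib2, a pseudokinase, had a log2 fold change of -1.66 with an adjusted p of 0.0085 in limma, 0.0646 without double-mutant replicate 1 and 0.0742 without wild type replicate 2. Swap70, Pim1, Dtx1 and Arid3b, picked after their values were seen, had log2 fold changes of -1.51, -1.08, -1.31 and -1.52. SWAP-70 acts on actin in activated B cells, Pim1 is a survival kinase, Dtx1 regulates Notch, and Arid3b binds AT-rich DNA.

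Calcium stores and pumps held 3 falls and 1 rise among 16 genes, or no rise without double-mutant replicate 1 or wild type replicate 1. Atp2a3, the SERCA3 pump that returns calcium to the endoplasmic reticulum, read 652.2 and 730.9 in the double mutant and 1171 and 1219 in wild type (log2 -0.79), beside the fall of the release channel Itpr3 given above. Camk2d, a calcium-dependent kinase, read 121.8 and 104.7 against 239.3 and 186.5 (log2 -0.90, adjusted p = 0.00098 from limma).

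Genes of recombination and of B-lineage transcription changed in both directions. Of 17 recombination and end joining genes 3 were higher and 3 lower, and no more than 1 was lower without double-mutant replicate 1 and 1 higher without double-mutant replicate 2, while 1 was higher and 1 lower without either wild type array. Rag2, the partner of Rag1 in the recombinase, read 376.8 and 546.5 in the double mutant and 269.2 and 288.3 in wild type (log2 0.70, adjusted p = 0.014 from limma), with an adjusted p of 0.0829, 0.0957 and 0.061 without double-mutant replicate 2, wild type replicate 1 and wild type replicate 2. Atm, the kinase that answers DNA double-strand breaks, read 41.02 and 37.51 against 154.4 and 136.1 (log2 -1.89, SE 0.11). Of 31 transcription factors 3 were higher and 6 lower, or 3 lower without double-mutant replicate 1 or wild type replicate 1. Irf4, which supports light chain rearrangement and later plasma cells, read 2445 and 2690 in the double mutant and 1693 and 1493 in wild type (log2 0.69), while Id3, an inhibitor of E proteins, read 94.83 and 103.9 against 216 and 177.7 (log2 -0.98).

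Some classes of mitochondrial and ribosomal genes had more falls than rises, of smaller size, while most of their members did not pass the test. Of 80 oxidative phosphorylation subunits 19 were lower and 2 higher (median -0.19), of 74 mitochondrial ribosomal proteins 10 lower and 1 higher (median -0.17) and of 48 cytoplasmic ribosomal proteins 7 lower and 1 higher (median -0.13). Probe sets of cytoplasmic ribosomal proteins that carry several symbols are outside that list. Those of them that passed the test were all lower, for example that of Rpl10 (log2 -0.43). Other classes of this kind had few calls in either direction. Translation factors counted 2 higher and 3 lower of 52 (median 0.01). Aminoacyl-tRNA synthetases counted 1 and 1 of 24 (median -0.10), and the citrate cycle 1 and 0 of 20 (median -0.05). Ndufs5, a complex I subunit, read 248.4 and 257.2 in the double mutant and 367.9 and 352 in wild type (log2 -0.51), and Ndufa6, also of complex I, 606.9 and 710.1 against 893.6 and 1035 (log2 -0.55, adjusted p = 0.0099 from limma, 0.0961 without double-mutant replicate 1 and 0.0993 without wild type replicate 2). Rpl37 and Rps25, of the large and the small ribosomal subunit, had log2 fold changes of -0.86 and -1.86, and Mrpl37 was the mitochondrial ribosomal protein that rose, at 468.8 and 480.5 against 274.8 and 272.3 (log2 0.80). These counts rested on single arrays: the oxidative phosphorylation falls numbered 1 without double-mutant replicate 1, 9 without wild type replicate 1 and 2 without wild type replicate 2. The mitochondrial ribosomal falls numbered 0, 2 and 1 and the cytoplasmic ones 3, 4 and 3 without the same arrays.

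DNA replication genes had 6 falls and 1 rise among 46 (median -0.12), and genes of the unfolded protein response 5 falls and 1 rise among 26 (median -0.10). Cdc45, of the replicative helicase, read 95.45 and 86.94 in the double mutant and 122.2 and 135.6 in wild type (log2 -0.50), with an adjusted p of 0.009 in limma, 0.0611 without double-mutant replicate 2 and 0.0866 without wild type replicate 2. Pold1, the catalytic subunit of DNA polymerase δ, was the rise, at 1567 and 1253 against 928.2 and 868.1 (log2 0.64). The replication falls numbered 2, 2 and 0 without double-mutant replicate 1, wild type replicate 1 and wild type replicate 2, and the falls of the unfolded protein response 0, 3, 0 and 3 without double-mutant replicates 1 and 2 and wild type replicates 1 and 2. H1f2, a linker histone, read 918.4 and 643 in the double mutant and 2305 and 1752 in wild type (log2 -1.39). Of 14 histone genes 3 were lower and 0 higher, and the falls were fewer without any 1 of the 4 arrays. H2aj, 1 of the falls, had a further probe set, with means below 100, that was called higher (log2 0.51, adjusted p = 0.012 from limma). Further probe sets of H1f2 were lower (log2 -1.94) or did not pass the test (0.19). Of 20 glycolysis genes 4 were higher, the lactate transporter Slc16a1 among them, and 2 lower (median 0.12), and both counts were smaller without any 1 of the 4 arrays. The summed intensity of the list was lower in the double mutant, at 7728 to 7772, than in wild type, at 8037 to 8168. Aldoa, an aldolase, was 1 of the falls, at 1030 and 1041 in the double mutant and 1524 and 1596 in wild type (log2 -0.59).

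Interferon-inducible genes had 2 rises and 3 falls among 34 (5.88% and 8.82%, beside 4.89% and 4.13% of all genes), and 1 of each without wild type replicate 1. Outside that list, Slfn2, a Schlafen protein linked to lymphocyte quiescence, read 263.2 and 272.5 in the double mutant and 859.3 and 823.2 in wild type (log2 -1.65), and Ifi27l2a, an interferon-induced protein of mitochondria, 459.6 and 488.6 against 1496 and 1428 (log2 -1.62, SE 0.10). A probe set shared by Tgtp2 and Tgtp1 went the other way, at 234.1 and 418.1 against 135.7 and 99.47 (log2 1.43). One shared by Mndal, Ifi211, Ifi205 and Ifi204 fell (log2 -0.49).

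**Figure D5:**
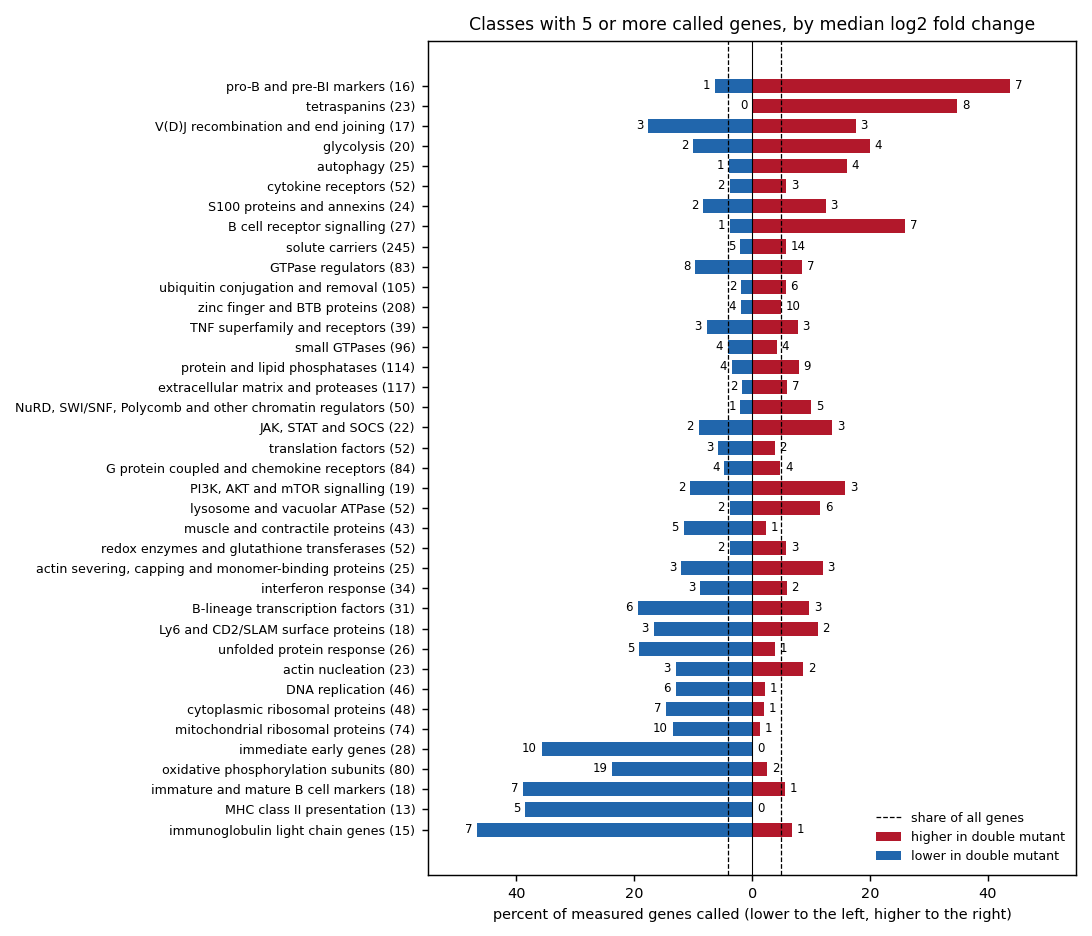
Percent of the measured genes of each class (number in parentheses) called higher (red, to the right) and lower (blue, to the left) in the double mutant, for the classes with 5 or more called genes, ordered by their median log2 fold change, with the counts beside the bars and dashed lines at the shares of all genes (4.89% and 4.13%). The marker lists of other bone marrow cells are left out of the plot. Of these, the granulocyte and monocyte list (10 higher of 19) and the erythroid list (6 of 14) also had 5 or more called genes. Among the classes shown, the pro-B and pre-BI markers and the tetraspanins reach farthest right. The light chain genes, MHC class II and the immature and mature B cell markers reach farthest left.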

How the data were processed

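The authors deposited RMA intensity values on a linear scale for 8 Affymetrix MOE430A arrays. RMA subtracts background, brings the arrays to 1 distribution and combines the probes of a probe set, and its version is not given in the sources used here. Their log2 values went into a limma 3.58.1 fit (R 4.3.3) of all 8 arrays by genotype, whose variances were moderated on 7.69 prior degrees of freedom beside 4 residual ones, and the contrast was double mutant minus wild type. All 22626 probe sets without the 64 AFFX controls were tested with Benjamini-Hochberg adjustment, and an adjusted p under 0.05 was a call. Of these, 20380 had 1 gene symbol in the platform annotation, 691 several and 1555 none, and 20351 were matched to the RefSeq gene table. Ikzf3 and other genes for which no probe set was matched were not analysed here. The probe set with the highest mean over all 8 arrays stood for each gene. The 71 gene lists are described by counts and medians beside those of all genes, without a set test. Members and lists were chosen with earlier results of these data known. The genes named are the 24 largest rises and 24 largest falls, genes the paper names for these arrays, the deleted genes and up to 6 members of each list with the smallest adjusted p, and genes outside this rule are marked as picked after their values were seen. The limma treatment was tested on simulated data. The p-values measure the spread between 2 pools per genotype, and the number of arrays limits the precision. Alternatives covered normalization, filters, moderation, the choice of probe set, a replicate block and leaving out arrays.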

Additional observations from a re-analysis of the deposited data

How the results depend on the processing

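Over the 4 arrays compared, the counts of genes and probe sets depended on how the variance was estimated. Without moderation of the variances the 476 higher and 444 lower genes were 117 and 96, the 690 and 788 probe sets 164 and 149, and the 181 and 186 genes of any list 42 and 34. With a minimum change of 2-fold there were 72 and 71 genes and 102 and 104 probe sets, and with a 3-fold change at an unadjusted p under 0.05 there were 24 and 24 genes and 35 and 38 probe sets. With only probe sets at 200 or more over all arrays the list genes counted 108 higher. When 1 array of any genotype was left out the genes ranged from 234 to 454 higher and 203 to 429 lower, the probe sets from 333 to 684 and 339 to 761, and the list genes from 98 to 174 and 83 to 178. Median centring gave 396 and 513 genes, and it moved the median of all genes to -0.02. The replicate numbers showed no pairing of the arrays. Deviations of the replicate 1 arrays from their genotype means correlated at -0.09 to 0.10 between genotypes, and a replicate block gave 492 and 460 genes. Of 135 genes named in the text 0 changed direction and 70 kept their call under the alternatives in which they were fitted, which leaves out 1 gene with the minimum of 100 and 48 with the minimum of 200. Averaging all probe sets of a gene took the call from Ebf1, Col5a3 and Ier5 (adjusted p 0.217, 0.0798 and 0.0803 in limma), a trend and robust fit took it from Fos, Jun and Trib2, and Ighm gained it under median centring (adjusted p 0.0481 in limma). Without moderation 63 named genes lost the call, and the cause of these changes was not tested.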
